A study of Mus musculus with 2 samples.

Results

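High-mitochondrial barcodes are the cell barcodes in which at least 10% of the unique molecular identifiers (UMIs) came from genes whose symbol starts with mt-, the genes of the mitochondrial genome. There were 1609 of them among the 17073 barcodes of the control library and 1600 among the 14496 barcodes of the MYC library, or 3209 of 31569 in all. The mitochondrial share itself chose them, so that share, and every other difference from barcodes under 10%, is given as a description with no test. Such barcodes are commonly removed before single-cell data are analysed.

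Hematopoietic cells of mouse bone marrow were profiled with a droplet kit that reads transcript 3′ ends. The control library is of the genotype Mx1Cre+/-;Rosa26+/+, and the MYC library is of the genotype Mx1Cre+/-;Rosa26LSL-MYC/LSL-MYC. Both therefore carried 1 Mx1-Cre allele, a Cre recombinase under an interferon-inducible promoter that is active in blood cells and also in other cell types. In LSL-MYC a stop cassette that recombination takes out lies ahead of the MYC transgene. Age, sex, induction of Cre and the number of animals are not given in the sources used here. The question of the series was how MYC overexpressed in stem cells changes gene expression in the marrow. There was 1 library per genotype, so genotype and library preparation cannot be told apart. All intervals are 95% intervals that cover counting error only. The libraries shared 97 barcode sequences, and 1 of these was high-mitochondrial in both.

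The mitochondrial genome encodes 13 proteins of the respiratory chain and the ATP synthase, along with the ribosomal and transfer RNAs needed to make them. Its messenger RNAs are transcribed inside the organelle and most are polyadenylated there. A kit that primes on poly(A) tails captures these beside the cytosolic messenger RNAs. In single-cell data a high mitochondrial share is commonly used to mark cells that were damaged or had lost cytoplasm, and it also differs between healthy cell types.

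All 13 mitochondrial features were protein-coding genes. They are shown here by the ends of their annotated genes, because the kit reads transcripts from the 3′ side. A transcript can run past the annotated end, as that of mt-Nd6 is known to do. The last 30 bases of the genes that gave most of the mitochondrial UMIs, and of the only gene on the minus strand, are given 5′ to 3′ in the sense of the transcript, from GENCODE vM21 positions on the GRCm38 mitochondrial chromosome. Capitals mark the bases of the stop codon that the genome encodes.
mt-Co1, chrM:5328-6872: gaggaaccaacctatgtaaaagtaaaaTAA
mt-Co2, chrM:7013-7696: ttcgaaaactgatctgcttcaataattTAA
mt-Atp6, chrM:7927-8607: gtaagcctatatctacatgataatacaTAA
mt-Co3, chrM:8607-9390: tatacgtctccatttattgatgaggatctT
mt-Nd4, chrM:10167-11544: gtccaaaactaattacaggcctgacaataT
mt-Cytb, chrM:14145-15288: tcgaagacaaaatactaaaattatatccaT
mt-Nd6, chrM:13552-14070, minus strand: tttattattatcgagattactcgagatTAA
In 3 of the 13 genes, mt-Co3, mt-Nd4 and mt-Cytb, the encoded stop codon is a single T that the poly(A) tail completes. The annotated mt-Atp6 and mt-Co3 share 1 base, and mt-Atp8 and mt-Atp6 share 43 bases, so a read within the shared bases cannot be assigned by position alone.

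The mitochondrial RNA of the high-mitochondrial barcodes had nearly the same composition as that of barcodes under 10%. In the control library mt-Co1, a core subunit of cytochrome c oxidase, made up 19.9% of their mitochondrial UMIs and 20.7% of those of the other barcodes. The ATP synthase subunit mt-Atp6 made up 18.8% and 17.9%. The cytochrome c oxidase subunit mt-Co3 made up 16.9% and 17.8%. In the MYC library mt-Co1 made up 14.3% against 17.5% and mt-Atp6 21.2% against 19.1%, with mt-Co2 at 17.6% against 17.4%, so the gap was wider there. The complex I subunit mt-Nd4 made up 6.71% against 6.25% in the control library and 4.24% against 4.51% in the MYC library. Cytochrome b, mt-Cytb, lay at 7.71% against 7.50% and at 8.98% against 8.55%. The complex I subunit mt-Nd6 on the minus strand gave 0.131% against 0.128% and 0.124% against 0.116%. No single mitochondrial gene therefore made up the high share, and the larger differences in makeup were between the libraries.

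**Figure D1:**
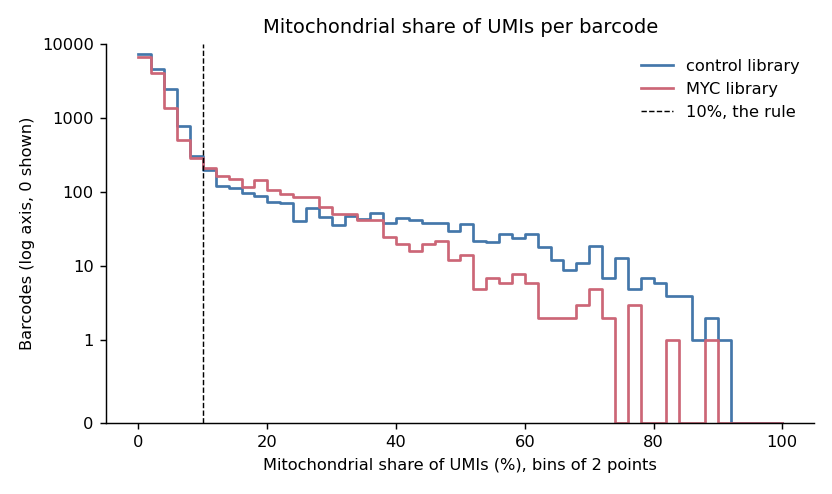
Number of barcodes (log axis, with 0 shown) by the mitochondrial share of their UMIs in bins of 2 percentage points, for the control library (blue) and the MYC library (red), with the 10% rule as a dashed line. Neither library shows a gap at 10%, and above 50% the control library holds 277 barcodes and the MYC library 67.

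The share of high-mitochondrial barcodes was 9.42% (8.99% to 9.87%) in the control library and 11.04% (10.53% to 11.6%) in the MYC library. The lowest UMI total of any barcode was 500 in the control library and 638 in the MYC library. The part of this floor in the values below was not tested. The control library held the more extreme barcodes. The median mitochondrial share of its high-mitochondrial barcodes was 25.7%, against 20.1% in the MYC library, with highest values of 90.5% and 88.2%. At least 30% was reached by 690 control barcodes and 368 barcodes of the MYC library, and at least 75% by 39 and 5. For comparison, barcodes under 10% had median shares of 2.16% and 1.93%. Counts fell without a break across 10%. Just inside, from 10% to 11%, lay 100 control barcodes and 124 of the MYC library, with medians of 2097.5 and 2447.5 other UMIs. Just outside, from 9% to 10%, lay 129 and 133 barcodes, with medians of 3731 and 4476. Here and below, other UMIs are those not from mitochondrial genes.

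High-mitochondrial barcodes differed from the rest by fewer other UMIs as well as by more mitochondrial ones. Their median number of other UMIs was 884 (control) and 1423 (MYC library), against 5338 and 5950 in barcodes under 10%. Their median number of mitochondrial UMIs was 383 and 401.5, against 79 and 78. A median of 492 and 794 genes was detected, against 1561 and 1597. Fewer than 200 genes were seen in 134 of the control and 8 of the MYC barcodes. They held 3.14% of all UMIs of the control library and 4.10% of those of the MYC library, but 20.8% and 25.1% of the mitochondrial UMIs.

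To ask which lineages these barcodes come from, all barcodes were clustered on their non-mitochondrial genes and clusters were named from marker genes. Fewer high-mitochondrial barcodes than other barcodes could be named: 800 (49.7%) in the control library and 1084 (67.8%) in the MYC library fell into a class. Of the barcodes under 10%, 82.8% and 78.5% did. With cluster 8 left unnamed, as described below, monocyte-like barcodes were the largest named class in both libraries. They numbered 185 of 1609 (11.5%) in the control and 519 of 1600 (32.4%) in the MYC library. Of the barcodes under 10% they made up 8.84% and 13.4%. In the control library B cell-like barcodes followed with 158 (9.82%), T or NK cell-like with 102 (6.34%) and granulocyte progenitor-like with 95 (5.90%). Macrophage-like barcodes followed in the MYC library with 109 (6.81%), granulocyte progenitor-like with 95 (5.94%) and immature neutrophil-like with 90 (5.62%). B cell-like and T or NK cell-like barcodes numbered only 39 and 47 there. The macrophage-like class joins cluster 20, led by genes such as C1qb, Fabp4, Fcgr4, Tcf7l2 and Cd300e, and cluster 26, led by Mrc1, Cd5l and Fcna. Cluster 20 held 99 of the high-mitochondrial ones in the MYC library and 4 in the control, and cluster 26 held 10 and 13. No marker type was listed for nonclassical monocytes, so such cells would carry another name or none. The order depended on how barcodes were named. By profiles of barcodes under 10% the control had 182 B cell-like, 118 erythroid-like and 108 monocyte-like barcodes, and by markers of each barcode alone 125 granulocyte progenitor-like and 97 monocyte-like ones. In the MYC library monocyte-like barcodes stayed the largest named class, but by profiles 164 macrophage-like and 152 stem or megakaryocyte-like barcodes followed, with 26 immature neutrophil-like ones, and by markers alone 148 granulocyte progenitor-like ones, with 40 macrophage-like.

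The neutrophil lineage, the most abundant in marrow, was underrepresented. Granulocyte progenitor-like, immature and mature neutrophil-like barcodes together made up 11.1% of the high-mitochondrial barcodes of the control library and 12.9% of those of the MYC library, against 44.6% and 46.5% of the barcodes under 10%. Within the lineage the share fell with maturity. Of the granulocyte progenitor-like barcodes 16.0% (13.2% to 19.2%) in the control and 17.5% (14.4% to 21.0%) in the MYC library reached 10%. Of the immature neutrophil-like barcodes 2.36% and 3.83% did, or 1.03% and 1.18% by profiles. Of the mature neutrophil-like barcodes 0.731% (0.498% to 1.04%) and 0.663% (0.416% to 1.002%) did, the lowest share of any named class in both libraries. Erythroid-like barcodes, with cluster 8 left unnamed, stood at 1.65% and 3.68%. By profiles they stood at 7.82% and 5.70%, and by markers alone at 3.21% and 8.36%.

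The named classes with the highest shares differed in part between the libraries, and T or NK cell-like barcodes were among them in both. In the control library macrophage-like barcodes reached 19.3% (11.7% to 29.1%), T or NK cell-like 18.99% (15.8% to 22.6%), granulocyte progenitor-like 16.0% and plasmacytoid dendritic cell-like 15.3% (11.8% to 19.5%). Their intervals overlap, so these 4 cannot be ordered. In the MYC library monocyte-like barcodes reached 23.1% (21.4% to 24.9%), T or NK cell-like 22.1% (16.7% to 28.2%) and stem or megakaryocyte-like 20.7% (16.2% to 25.9%), with overlapping intervals again. Plasmacytoid dendritic cell-like barcodes stood at 19.4% (11.9% to 28.9%) there and stromal or endothelial cell-like ones at 18.1% (11.8% to 25.9%). Their intervals overlap these too. Granulocyte progenitor-like barcodes stood at 17.5% in the MYC library. The monocyte-like share was 11.9% (10.4% to 13.6%) in the control library, and the stem or megakaryocyte-like share 10.4% (7.002% to 14.6%). Both lay below the intervals of the MYC library. The T or NK cell-like shares were the highest of the named classes by profiles, 21.3% and 26.9%, but lower by markers alone, 8.33% and 8.90%. Conventional dendritic cell-like barcodes stood at 3.90% and 11.5%, but at 10.03% and 23.4% by profiles. That class is cluster 22, led by H2-Eb1, H2-Aa and H2-Ab1. Its leading genes also held Ace and Adgre4, which belong to no listed marker type. B cell-like barcodes stood at 12.5% and 18.6%, with intervals that met (10.7% to 14.5% and 13.6% to 24.5%). Whether these gaps come with genotype or with preparation cannot be told apart.

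**Figure D2:**
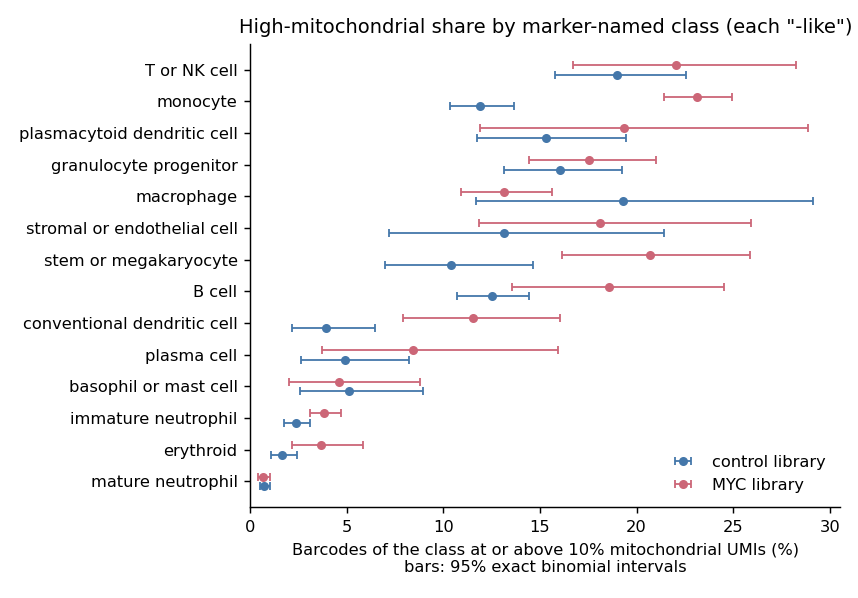
Percent of the barcodes of each marker-named class at or above 10% mitochondrial UMIs in the control library (blue) and the MYC library (red), with exact 95% binomial intervals. Mature neutrophil-like barcodes lie under 1% in both libraries, and monocyte-like barcodes at 11.9% (control) and 23.1% (MYC library).

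The unnamed barcodes were mostly of 2 shallow clusters. Cluster 8 held 676 high-mitochondrial barcodes of the control library, 21.5% of the cluster, and 444 of the MYC library, 14.8% of the cluster. Its median depth was 0.140 and 0.149 of that of its library, and it was led by Sec61a1, Gm26917, AY036118, Hba-a2 and Gm42418. Cluster 19 held 132 control barcodes and 71 of the MYC library, 53.7% and 26.6% of the cluster. It had 13 erythroid markers detected, yet its 10 leading genes, among them Gm26917, Tsix, Kel, Ank1, Sox6 and Tfrc, included no marker of the erythroid list, so it stayed unnamed. When each barcode was instead matched to the profiles of barcodes under 10%, 1051 of the 1325 unnamed high-mitochondrial barcodes of both libraries matched the profile of unnamed barcodes, 122 an erythroid one and 54 a stem or megakaryocyte one.

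Another shallow cluster, cluster 12, carried most of the high-mitochondrial monocyte-like barcodes. It was led by Tsix, Vcan, Gm26917, Gria3 and Fn1, and 130 of its 163 control barcodes (79.8%) and 333 of its 397 barcodes of the MYC library (83.9%) were high-mitochondrial. Fn1 is a monocyte marker and Vcan, versican, is typical of monocytes. The other monocyte-like clusters, 13 and 14, had 16 of 685 and 39 of 704 such barcodes in the control library, and 63 of 747 and 123 of 1100 in the MYC library. A comparison within monocyte-like barcodes therefore sets mainly cluster 12 against clusters 13 and 14. By profiles 445 of the 704 monocyte-like high-mitochondrial barcodes of both libraries were monocytes, 114 conventional dendritic cells, 53 stem cells or megakaryocytes and 35 unnamed.

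The UMI counts behind a high share, which the 10% rule itself uses, differed by class. In monocyte-like barcodes the median number of other UMIs was 1825 in both libraries, against 11174 and 13200 in barcodes under 10%, or 0.163 and 0.138 of it. Their medians of mitochondrial UMIs were 678 against 452 in the control, higher in the high-mitochondrial ones, and 583 against 547 in the MYC library. Without cluster 12 the control had 0.629 of the other UMIs and 2.46 times the mitochondrial ones, and the MYC library 0.217 and 1.22. B cell-like barcodes had 0.255 and 0.269 of the other UMIs, and 1.03 and 1.09 times the mitochondrial UMIs. T or NK cell-like barcodes had 0.193 and 0.294 of the other UMIs, with 1.03 and 1.49 times the mitochondrial ones. Plasmacytoid dendritic cell-like barcodes had fewer of both, 0.155 and 0.176 of the other and 0.817 and 0.835 of the mitochondrial UMIs.

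Erythroid-like barcodes differed in both, with 0.293 and 0.279 of the other UMIs and 4.72 and 7.34 times the mitochondrial ones. In mature neutrophil-like barcodes it was mainly the mitochondrial UMIs that differed. Their other UMIs were close to those of the rest, with medians of 3288 against 3949 in the control and 3992.5 against 5216 in the MYC library. Their mitochondrial UMIs were far higher, with medians of 719 against 26 and 700.5 against 44. Only 31 and 22 barcodes are behind these medians. Clusters 8 and 19 were of this kind too. In cluster 8 the medians of mitochondrial UMIs were 324 against 22 and 252 against 18, and those of other UMIs 474.5 against 727 and 674.5 against 781. In cluster 19 they were 809.5 against 35.5 and 592 against 33 mitochondrial UMIs, and high-mitochondrial barcodes had 1.24 and 1.60 times the other UMIs.

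**Figure D3:**
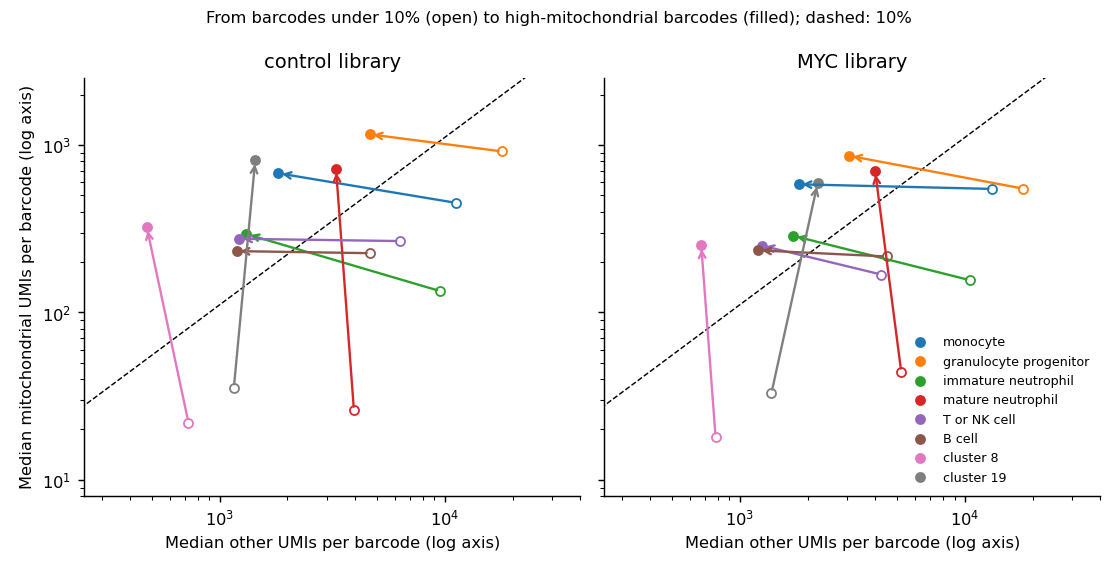
Median mitochondrial UMIs against median other UMIs per barcode (both log axes), from barcodes under 10% (open) to high-mitochondrial barcodes (filled) of the same class, with the 10% line dashed. Monocyte-like, granulocyte progenitor-like, T or NK cell-like and B cell-like barcodes move left to fewer other UMIs, while mature neutrophil-like barcodes and clusters 8 and 19 move up to more mitochondrial UMIs.

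Gene levels were compared as UMIs per 1000000 other UMIs (CPM), so that mitochondrial RNA could not dilute the rest. A gene was called different at a change of at least 2-fold whose interval excluded no change, among genes with at least 50 UMIs. Over all barcodes 2559 of 13406 genes (19.1%) were called higher in high-mitochondrial barcodes of the control library and 231 (1.72%) lower. Of the MYC library's genes 4300 of 12859 (33.4%) were called higher and 302 (2.35%) lower. The same direction was called in both libraries for 1993 genes higher and 91 lower. The median gene was itself 0.48 and 0.69 higher on the log2 scale. With median-of-ratios scaling, which sets that median near 0, the share of calls that were higher went from 91.7% to 47.6% in the control and from 93.4% to 40.0% in the MYC library, so each change below is best read against it.

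The genes called higher over all barcodes with the largest change in both libraries were led by Gm26917. It is annotated as a long noncoding RNA on chromosome 17 (GRCm38, 39843013 to 39846341). Whether its reads come from such a transcript was not tested. Gm26917 stood at 3692 CPM against 354 CPM in the control library and at 3169 against 224 in the MYC library. Its log2 ratios were 3.38 (3.35 to 3.41) and 3.82 (3.79 to 3.86). Kcnq1ot1, an imprinted antisense RNA kept in the nucleus (chromosome 7, 143203458 to 143296549), followed at 2.37 and 2.65. Its UMIs and those of the overlapping gene may not be fully separable, since the strand setting of the counting is not given in the sources used here. BC005561 lay at 2.14 and 2.18, the kinase gene Grk3 at 2.04 and 2.25, the amino acid transporter gene Slc38a1 at 1.78 and 1.94, and Alkbh1 at 1.93 and 2.08.

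Several of the named genes mark a cell class. Mpo, the myeloperoxidase of granulocyte progenitors, stood at 5483 against 1291 CPM and 3629 against 892.5 CPM, log2 ratios of 2.09 and 2.02. Vcam1, an adhesion molecule of macrophages and stroma, lay at 1.84 and 2.12. Here it was also a leading gene of the granulocyte progenitor-like cluster. The stromal chemokine gene Cxcl12 lay at 1.95 and 3.58, but 1 stromal or endothelial cell-like barcode held 51.3% of its UMIs in the high-mitochondrial barcodes of the MYC library, and without it the ratio was 2.55. Gm15987, Plppr3 and Selenoi complete the 12 named higher genes, with log2 ratios between 1.78 and 2.37.

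Most of the 12 named lower genes are known from neutrophils, and mature neutrophil-like barcodes made up only 1.93% and 1.38% of the high-mitochondrial barcodes, against 27.2% and 25.6% of the rest. The alarmin genes S100a9 and S100a8 lay at log2 ratios of -1.62 and -1.57 in the control and of -1.93 and -1.90 in the MYC library. S100a9 stood at 16959 against 52186 CPM and at 21096 against 80261 CPM. The granule genes Camp, Ngp, Lcn2 and Mmp8 lay between -1.30 and -1.61 in the control and between -1.36 and -1.73 in the MYC library. Ly6g, the surface marker of neutrophils, lay at -1.55 and -1.69. AA467197, Wfdc21, Ifitm6, Anxa1 and S100a6 lay between -1.31 and -1.57 and between -1.35 and -1.90. How far these values follow the makeup of the barcodes was not tested, and the comparisons within classes follow.

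Monocyte-like barcodes were the class with enough high-mitochondrial members in each library, 185 and 519, for a comparison within a class. In the control library 1403 of 10244 genes (13.7%) were called higher and 347 (3.39%) lower, and in the MYC library 2776 of 10536 (26.3%) higher and 621 (5.89%) lower. Called the same way in both were 1015 genes higher and 202 lower. The all-gene median was 0.33 and 0.54, and with median-of-ratios scaling the share of calls that were higher went from 80.2% to 33.7% and from 81.7% to 27.4%. Without cluster 12 the control library had 968 calls in place of 1750, of which 763 (7.48%) were higher and 205 (2.01%) lower. The MYC library then had 2224 (21.3%) higher and 405 (3.87%) lower. Called the same way in both were then 394 genes higher and 72 lower.

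The monocyte markers were among the genes that the clustering used. Of the 10 monocyte markers none was called in the control library, where their summed level was 6448 CPM against 7364, and 1 was called higher in the MYC library, where it was 7939 against 5692. That gene was Fn1, fibronectin, at 1820 against 788 CPM in the MYC library (log2 ratio 1.21) and 977 against 1049 in the control (-0.10). Without cluster 12, Fn1 was called lower in the control, at -1.17, and higher in the MYC library, at 1.19. The chemokine receptor gene Ccr2 stood at 1013 against 1020 CPM in the control and 1642 against 873 in the MYC library. The growth factor receptor gene Csf1r stood at 188 against 194 and 212 against 132. The surface marker Ly6c2 stood at 1289 against 2055 and 1419 against 1511, and Irf8, a transcription factor of monocyte fate, at 963 against 542 and 670.5 against 385. Markers of T cells were at 14.8 against 5.11 CPM and 8.30 against 2.67. They were low in both kinds of barcodes but higher in the high-mitochondrial ones.

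Messenger RNAs of the translation machinery were lower in high-mitochondrial monocyte-like barcodes. Of the genes of cytosolic ribosomal proteins, which form the most abundant short messenger RNAs of a cell, 32 of 81 were called lower in the control and 71 of 83 in the MYC library, and none higher. They made up 9.61% of other UMIs against 17.5% in the control library, and 9.70% against 24.7% in the MYC library. Their median log2 ratios were -0.88 and -1.36, against all-gene medians of 0.33 and 0.54. Rpl41, among the shortest protein-coding genes, stood at 1316 against 3903 CPM and 1126 against 3840. Rps27 lay at log2 ratios of -1.43 and -1.72 and Rpl3 at -1.04 and -1.49. Rplp0 lay at -0.52 in the control, short of a call, and at -1.33 in the MYC library. Without cluster 12 the cytosolic ribosomal proteins were called lower for 7 of 81 and 49 of 82, with medians of -0.47 and -1.07.

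The nuclear-encoded respiratory chain went the same way, opposite to the mitochondrially encoded subunits that defined these barcodes. Of 75 genes 22 were called lower in control barcodes and 49 in those of the MYC library, and none higher. Of all genes of the class 3.39% and 5.89% were called lower. The 75 genes made up 1.17% of other UMIs in both libraries, against 2.11% and 2.60%. Ndufa4, a small subunit of cytochrome c oxidase, stood at 142 against 482 CPM in the control and 165 against 540 in the MYC library, log2 ratios of -1.76 (-2.07 to -1.47) and -1.71 (-1.90 to -1.53). Atp5e of the ATP synthase lay at -1.23 and -1.45, Uqcr11 of complex III at -1.28 and -1.13, and Cox4i1 at -0.68, which was not called, and -1.14. Sdha of complex II lay at -0.32 and 0.36 and Ndufs1 of complex I at 0.55 and 0.14, none of them called. Without cluster 12 the nuclear-encoded respiratory chain was called lower for 5 and 25 of 75.

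RNAs that stay in the nucleus were higher. All 3 measured nuclear-retained RNAs were called higher in monocyte-like barcodes of both libraries, with medians of 1.46 and 1.92, and they made up 2.46% of other UMIs against 0.891% in the control and 2.18% against 0.581% in the MYC library. Malat1, which resides in nuclear speckles, stood at 22912 against 8316 CPM in the control and 20286 against 5344 in the MYC library. Neat1, the scaffold of paraspeckles, stood at 951 against 394 and 877 against 324. Kcnq1ot1 stood at 730.4 against 197.5 and 587 against 144.5. Gm26917, which is not of that list and whose place in the cell was not tested, stood at 3077 against 428 and 2415 against 246. Without cluster 12 the nuclear-retained RNAs still had medians of 1.05 and 1.48, with 2 and 3 of 3 called higher.

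The monocyte-like genes called in both libraries also differed in size. The protein-coding genes called higher had a median exonic length of 7.98 kb and spanned a median of 44.8 kb, those called lower 1.57 kb and 5.21 kb, and all protein-coding genes compared 4.57 kb and 23.9 kb. Noncoding genes made up 11.1% of the 1015 genes called higher, 1.49% of the 202 called lower and 3.66% of those compared. Without cluster 12 the protein-coding genes among the 394 called higher had medians of 7.35 kb exonic length and 39.8 kb span. Those among the 72 called lower had 1.65 kb and 6.15 kb. Among the other named genes of this class, higher were Grk3 at 1.88 and 2.11 and Ankle1 at 1.97 and 1.91. Lower were Bri3 at -1.86 and -1.67, Apoc2 at -1.92 and -2.16, the latter from only 9 and 36 UMIs, and Gm10076 at -1.75 and -2.02. The anti-apoptotic gene Bcl2 was called higher, at 1.64 and 1.40, and the pro-apoptotic gene Bax lay at -0.97, not called, and at -1.22.

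Transcripts of red cells were higher in monocyte-like barcodes that were high-mitochondrial. All 4 measured haemoglobin genes were called higher in both libraries, with median log2 ratios of 1.60 and 2.53, and they made up 0.330% of other UMIs against 0.102% in the control and 0.289% against 0.0503% in the MYC library. Hba-a2 stood at 1474 against 395 CPM in the control and 456 against 79.0 in the MYC library, and Hbb-bs at 893 against 319 and 1380.4 against 255. Slc4a1, the anion exchanger of the red cell membrane, stood at 97.6 against 23.3 CPM and 77.5 against 11.9, log2 ratios of 2.06 and 2.70. Of the erythroid markers 10 of 11 and 10 of 10 measured ones were called higher, with summed levels of 3615 against 1114 CPM and 3175 against 555. The immature neutrophil markers, another abundant class of marrow, were not higher: 0 of 9 were called in either library. Their summed levels were 4696 against 7511 and 6283 against 6374. The summed T cell markers, given above, were higher in both libraries, at low levels. The compared barcodes differed in depth, with a ratio of medians of 0.163 and 0.138, and the part of depth in these values was not tested.

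The ribosomal RNA-like features, which draw reads of ribosomal RNA, were called higher for all 3 in the MYC library and for none in the control, with medians of 1.27 and 0.68. They made up 13.9% of other UMIs against 6.03% in the MYC library and 14.3% against 12.3% in the control. High-mitochondrial barcodes of both libraries thus stood at similar levels, and the other barcodes did not. Gm42418 stood at 138795 against 120477 CPM in the control and 133391 against 58510.0 in the MYC library. Lars2 lay at 0.99 and 1.73.

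Few genes of the stress lists were called in monocyte-like barcodes, where 13.7% and 26.3% of all genes were called higher and 3.39% and 5.89% lower. Of the mitochondrial stress and ATF4 targets 1 of 16 was called higher in the control and 2 of 18 in the MYC library, with medians of 0.30 and 0.17, close to or under the all-gene medians. Atf4, the transcription factor of that response, lay at 0.80 and 0.79, and Ddit3, which encodes CHOP, at 0.74 and 0.89, none of them called. Hspd1, a chaperonin of the mitochondrial matrix, stood at 214 against 194 CPM and 232 against 236, and Tfam, which packages the mitochondrial genome, at 26.6 against 35.6 and 31.1 against 34.7. Polg, the mitochondrial DNA polymerase, lay at 0.65 in the control and was called higher, at 1.36, in the MYC library. Of the p53 targets 2 of 16 and 1 of 17 were called higher, and of the mitophagy genes 0 of 19 and 2 of 19. Of the Bcl2 family and cell death genes 2 of 21 were called higher and 1 lower in the control, and 5 of 22 higher and 2 lower in the MYC library, shares near those of all genes. Of the G2 and M phase genes 11 of 52 and 16 of 52 were called higher, with medians of 0.58 and 0.71 against 0.33 and 0.54 over all genes, among them Mki67, a marker of dividing cells, at 0.85 in the control, short of a call, and 1.22 in the MYC library.

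The Mx1 promoter answers to interferon, and the study's title names alarmins, so both groups were looked at. Of the interferon response 7 of 29 were called lower in control monocyte-like barcodes and none higher, with a median of -0.35, while in the MYC library 3 of 26 were higher and 2 lower. Over all genes of the class 3.39% and 5.89% were called lower. Ifi27l2a, an interferon-induced gene, stood at 201 against 970 CPM in the control and 65.0 against 371 in the MYC library, log2 ratios of -2.27 (-2.52 to -2.03) and -2.51 (-2.82 to -2.22), the lowest ratios of the named genes of this class. It is also among the leading genes of cluster 13, which holds few high-mitochondrial barcodes. Of the alarmins 4 of 8 and 3 of 8 were called lower, with medians of -0.87 and -0.85. S100a8 lay at -0.61 and 0.20, and S100a9 at -0.59 and 0.11, none of them called.

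**Figure D4:**
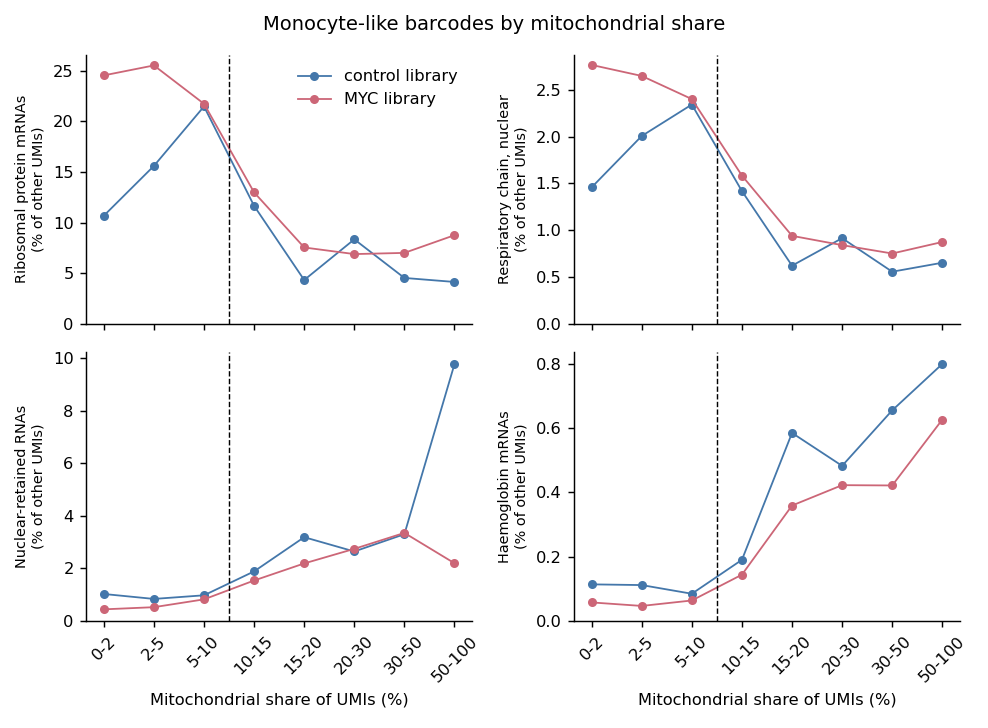
Share of other UMIs taken by cytosolic ribosomal protein genes, nuclear-encoded respiratory chain genes, nuclear-retained RNAs and haemoglobin genes in monocyte-like barcodes, by mitochondrial share in 8 bins, for the control library (blue) and the MYC library (red); the dashed line is the 10% rule. Most of the change falls between the bins of 5 to 10% and 15 to 20%, and the last bin holds only 13 and 9 barcodes.

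Within monocyte-like barcodes these levels changed with the mitochondrial share. Ribosomal protein genes took 10.7%, 15.6% and 21.5% of other UMIs in the control bins of 0 to 2%, 2 to 5% and 5 to 10%, so below the rule they went up. They then took 11.6% at 10 to 15% and 4.31% at 15 to 20%. In the MYC library the same bins held 24.6%, 25.5%, 21.7%, 12.98% and 7.53%. Nuclear-retained RNAs went from 0.973% at 5 to 10% to 1.88%, 3.19%, 2.64% and 3.30% in the next 4 bins of the control, and from 0.818% to 1.54%, 2.19%, 2.74% and 3.35% in the MYC library. Haemoglobin genes went from 0.0844% to 0.656% in the bin of 30 to 50% in the control, and from 0.0634% to 0.422%. The bins above 50% hold 13 and 9 barcodes and are not relied on. The share of cluster 12 rose alongside, from 42.7% at 10 to 15% to 100% above 30% in the control, and from 31.1% to 92.2% at 30 to 50% in the MYC library.

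Granulocyte progenitor-like, immature neutrophil-like, T or NK cell-like and B cell-like barcodes had from 39 to 158 high-mitochondrial barcodes per library and were described after these counts were seen. In all 4 classes the haemoglobin genes were called higher for 4 of 4 measured genes in both libraries. In granulocyte progenitor-like barcodes 1082 of 8952 genes (12.1%) were called higher and 133 (1.49%) lower in the control, and 2862 of 8294 (34.5%) and 652 (7.86%) in the MYC library. Cytosolic ribosomal proteins were called lower for 13 of 81 and 73 of 81 there, with medians of -0.69 and -1.45. Of the 7 markers of the class 1, Mpo, was called higher in both libraries, at 1.004 and 1.88. Cebpe, a transcription factor of granule formation, lay at -0.77 and was called lower, at -1.44, in the MYC library. Elane, neutrophil elastase, lay at 0.03 and -0.16 and Prtn3 at 0.21 and -0.27. Camp, of the next granule stage, lay at -1.56 and -1.06. The ribosomal RNA-like features took 5.26% against 1.78% of other UMIs in the control and 7.36% against 1.02% in the MYC library.

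In immature neutrophil-like barcodes 665 of 9228 genes (7.21%) were called higher and 63 (0.683%) lower in the control, and 1857 of 9246 (20.1%) and 144 (1.56%) in the MYC library, from 53 and 90 high-mitochondrial barcodes. By profiles only 43 of these barcodes of both libraries were immature neutrophils and 94 were unnamed, so the class is uncertain. Few cytosolic ribosomal proteins passed the 2-fold rule, with 1 of 81 lower and 1 higher in the control and 1 of 82 lower in the MYC library. Their medians of -0.31 and -0.55 still lay under the all-gene medians of 0.38 and 0.64. S100a8 and S100a9 together took 14.9% of other UMIs against 25.6% in the control and 10.9% against 28.5% in the MYC library. Mmp8, a collagenase of late granules, lay at -1.24 and -2.14, while Ltf, lactoferrin of secondary granules, lay at 0.63, not called, and 1.04. Car2, a carbonic anhydrase and erythroid marker, stood at 239.5 against 57.5 CPM and 149 against 27.5.

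In T or NK cell-like barcodes 1079 of 6686 genes (16.1%) were called higher and 292 (4.37%) lower in the control, and 440 of 2555 (17.2%) and 251 (9.82%) in the MYC library. Cytosolic ribosomal proteins were called lower for 68 of 81 and 73 of 81, with medians of -1.28 and -1.46. The nuclear-retained RNAs took 5.88% of other UMIs against 1.83%, and 4.47% against 1.46%. The receptor gene Cd3e stood at 356 against 273 CPM and 306 against 329, and was called in neither. Of the 11 T cell markers 2 were called lower in the control library and 1, Cd3d, in the other, with summed levels of 1946 against 2418 CPM and 1849 against 3032. Cd3d, another subunit of the receptor complex, lay at -1.50 and -1.81. The chemokine gene Ccl5 of cytotoxic cells lay at -2.92 and -1.93, but 82.2% of its UMIs in the MYC library were in 1 barcode of 47, and without it the ratio was -4.27. Tmsb10, a short actin-binding transcript, lay at -2.05 and -1.98. Markers of other lineages moved as well: Elane, Prtn3 and Ctsg of granulocyte progenitors lay at 2.14, 1.63 and 2.39 in the control, and at 0.80, 1.25 and 0.97 in the MYC library.

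In B cell-like barcodes 1467 of 8858 genes (16.6%) were called higher and 397 (4.48%) lower in the control, and 345 of 2148 (16.1%) and 132 (6.15%) in the MYC library, where only 39 barcodes were high-mitochondrial. Cytosolic ribosomal proteins took 4.87% of other UMIs against 12.6% in the control, with 74 of 81 called lower, and 11.6% against 25.6% in the MYC library, with 57 of 80. Ebf1, a transcription factor of early B cells, was called higher, at 3140 against 1190 CPM and 1406 against 674 CPM. The short transcript of Vpreb3 went the other way, at 335 against 790 and 91.7 against 334. The pan-B marker Cd79a stood at 907.5 against 1083 and 1040 against 1434, not called. Mpo was the highest of the named genes at 2.82 and 2.69, but 1 barcode held 57.4% of its UMIs in the control, and without it the ratio was 1.64.

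**Figure D5:**
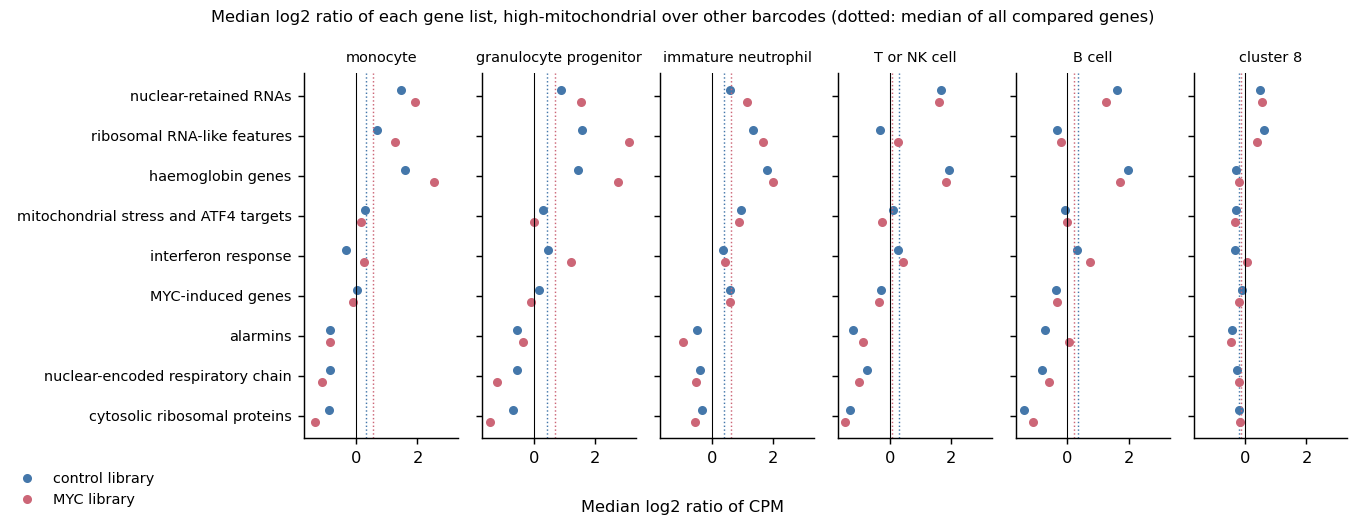
Median log2 ratio of CPM, high-mitochondrial over other barcodes, of 9 gene lists in 5 marker-named classes and cluster 8, for the control library (blue) and the MYC library (red), with the median of all compared genes as dotted lines. Haemoglobin genes lie right of the dotted lines in all 5 classes and cytosolic ribosomal proteins left of them, while in cluster 8 both lie close to them.

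Cluster 8, which held the most high-mitochondrial barcodes, did not show these differences. In the control 24 of 5971 genes (0.402%) were called higher and 217 (3.63%) lower, and in the MYC library 62 of 5389 (1.15%) and 137 (2.54%). In both libraries 3 were called higher and 11 lower. Gm26917 was the gene that stood out, at 6197 against 479 CPM and 6335 against 536, log2 ratios of 3.69 and 3.56. None of the cytosolic ribosomal proteins was called, with medians of -0.21 and -0.18, and none of the haemoglobin genes, with medians of -0.31 and -0.19. The ribosomal RNA-like features took 35.3% of other UMIs against 22.9% in the control and 35.2% against 26.9% in the MYC library, although none was called 2-fold different. Mature neutrophil-like barcodes also had more mitochondrial UMIs, with 0.833 and 0.765 of the other UMIs of the rest. They had 2.61% against 2.51% and 4.71% against 4.47% of their other UMIs from cytosolic ribosomal proteins.

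Cluster 19, with its erythroid markers, differed between the libraries. In the control 260 of 1576 genes (16.5%) were called higher and 134 (8.50%) lower, and in the MYC library 126 of 2394 (5.26%) and 56 (2.34%). Of the MYC-induced genes 18 of 31 were called higher and 1 lower in the control, with a median of 1.05, and 4 of 41 higher in the MYC library, with a median of 0.22. The haemoglobin genes went down here, with 4 of 4 called lower in the control (median -1.13) and none in the MYC library (median -0.58). Among the named lower genes, S100a9 stood at 9415 against 39716 CPM and 12612 against 41965, and Ltf at 843 against 3498 and 393 against 2379. In the control 1 barcode held 47.1% of the Ltf UMIs of the high-mitochondrial barcodes, and without it the ratio was -2.92. Higher were Piezo1, a mechanosensitive channel of red cells, at 2.91 and 1.71, and C1qtnf12 at 2.91 and 2.36.

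The appended MYC feature, whose sequence is not given in the sources used here, checks the labels. The high-mitochondrial barcodes of the control library had 0 UMIs of it in 1609 barcodes, which allows a level of up to 0.974 CPM. At their depth this does not limit the share of cells that express it. Those of the MYC library had 15 UMIs in 15 of 1600 barcodes, 0.938% (0.526% to 1.54%) of them. Barcodes under 10% had 314 UMIs in 2.24% of barcodes. Per 1000000 other UMIs the level was 4.24 CPM (2.37 to 6.997) in high-mitochondrial barcodes and 3.06 CPM (2.73 to 3.42) in the rest, a ratio of 1.39 (0.767 to 2.32). No difference was detectable at this depth. With every barcode thinned to 500 other UMIs, 0.235% of 1570 and 0.200% of 12896 barcodes had a UMI, with 30 and 0 shallower barcodes left out. Per barcode the direction turned, with 9.38 MYC UMIs per 1000 high-mitochondrial barcodes against 24.3 in the rest, whose median depths were 1423 and 5950 other UMIs.

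By class the MYC feature was counted in few high-mitochondrial barcodes. Monocyte-like ones had 7 UMIs, or 4.84 CPM (1.95 to 9.98), against 2.18 CPM (1.65 to 2.82) in the rest, a ratio of 2.22 (0.856 to 4.89). Macrophage-like ones had 2 UMIs against 13, a ratio of 3.28 (0.359 to 14.5). Mature neutrophil-like barcodes under 10% reached 9.06 CPM (7.70 to 10.6), the highest level of the named classes under 10%. Their 22 high-mitochondrial barcodes had 0 UMIs, which allows up to 33.8 CPM, so nothing can be said of them. The unnamed high-mitochondrial barcodes had 2 UMIs in 516, or 3.69 CPM (0.447 to 13.3), against 1.38 CPM (0.376 to 3.54). No interval of a ratio in a named class with MYC UMIs in both kinds of barcodes excluded 1.

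The mouse gene Myc could be counted more often. Over all barcodes it stood at 43.5 CPM in high-mitochondrial barcodes of the control library against 23.3 CPM in the rest, a log2 ratio of 0.90 (0.64 to 1.15), and at 40.4 against 21.3 CPM in the MYC library, a ratio of 0.92 (0.67 to 1.17). The all-gene medians were 0.48, below the interval of the control, and 0.69, within that of the MYC library. Within monocyte-like barcodes the ratios were 0.23 (-0.46 to 0.84) and -0.01 (-0.52 to 0.46). The neutrophil lineage as a whole gave 2.23 (1.80 to 2.64) and 2.14 (1.48 to 2.73), and within it granulocyte progenitor-like barcodes gave 0.42 (-0.03 to 0.85) and 0.34 (-0.41 to 1.01). Immature neutrophil-like barcodes gave 2.80 (-0.28 to 4.73) and 4.11 (2.40 to 5.47), from only 2 and 5 Myc UMIs in high-mitochondrial barcodes. In that lineage the progenitors made up 95 of 179 and 95 of 207 high-mitochondrial barcodes, against 498 of 6896 and 447 of 6003 of the rest. Erythroid-like barcodes gave 1.44 (0.60 to 2.18) and 1.60 (0.75 to 2.34), from 15 Myc UMIs in each library.

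Between the libraries the high-mitochondrial barcodes differed in 267 of 9508 genes called higher (2.81%) and 282 lower (2.97%) in the MYC library. In barcodes under 10% the calls were 401 of 14222 (2.82%) and 1374 (9.66%). Several of the named higher genes are known from monocytes or macrophages, which also made up more of these barcodes there. Vcan stood at 206.5 CPM in the MYC library against 14.6 in the control, a log2 ratio of 3.82 (3.39 to 4.29), and at 2.31 in barcodes under 10%. The Fc receptor gene Fcgr4 lay at 3.08, Wfdc17 at 2.49, Rgs1 at 2.34, the scavenger receptor gene Lrp1 at 1.84, Ifi30 at 1.84, the lipoprotein gene Apoe at 1.83 and Ifitm1 at 1.80. In barcodes under 10% these lay between 0.65 and 2.004. Among the named lower genes, Ebf1 stood at 34.8 against 268 CPM (log2 ratio -2.95), Siglech, a receptor of plasmacytoid dendritic cells, at 22.1 against 127 (-2.52), and Siglecg of B cells at 26.3 against 122 (-2.21). Sox4, Rhoh, Rhag and Ctse lay between -1.43 and -1.54. How far these values follow the classes present was not tested.

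Prg2, a granule protein gene of eosinophils, had the lowest ratio of the named genes, at 13.9 CPM in the MYC library against 479 in the control (log2 ratio -5.11), while in barcodes under 10% it lay at 0.42. The control level came mostly from 1 barcode. That barcode, basophil or mast cell-like with 11410 other UMIs and 11.3% mitochondrial UMIs, held 1385 of the 1477 Prg2 UMIs (93.8%), and 235 of 236 Epx and 72 of 75 Prg3 UMIs, genes chosen after their values were seen. Epx and Prg3 encode further eosinophil granule proteins. Without that barcode the control level of Prg2 was 29.97 CPM, still above the 13.9 CPM of the MYC library.

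Among monocyte-like high-mitochondrial barcodes 138 of 6388 genes (2.16%) were called higher in the MYC library and 77 (1.21%) lower. In monocyte-like barcodes under 10% the calls were 161 of 11185 (1.44%) and 479 (4.28%). Vcan led again, at 459 against 56.2 CPM (log2 ratio 3.03, 2.56 to 3.54), where barcodes under 10% gave 1.61. The interferon-induced membrane protein gene Ifitm1 lay at 2.86 (2.66 in the rest), Apoe at 1.83 (0.91), Snhg3 at 1.63 (0.93), Wfdc17 at 1.63 (0.94), Slc3a2, a subunit of amino acid transporters, at 1.59 (0.98) and AY036118 at 1.52 (0.92). Each of these was higher in the MYC library in both kinds of barcodes.

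Among the named lower genes, Sox4 stood at 50.5 against 174.5 CPM (log2 ratio -1.79), Cd34, a progenitor surface marker, at 40.1 against 137.5 (-1.78), and Myb, a transcription factor of progenitors, at 119 against 285 (-1.26). In the rest they lay at -0.45, -0.64 and -0.94. Ifi27l2a lay at -1.63 (-1.39 in the rest), Eif2ak2, the interferon-induced kinase PKR, at -1.18 (-0.85), Slfn9 at -1.49 (-1.17), Rab44 at -1.14 (-0.88) and Gm15564 at -1.50 (-2.53). The cytosolic ribosomal proteins, called higher for 3 of 83 in the rest with a median of 0.56, had 0 of 81 called in the high-mitochondrial barcodes, where the median was 0.02. The differences between the 2 kinds of barcodes were not tested.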

How the data were processed

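Single-cell RNA-seq UMI counts of 2 libraries, 1 per genotype, were analysed; with 1 library per group there is no replicate, so no test was made and no p-value is given. The deposited counts are whole UMI counts per gene and barcode that the authors produced in Cell Ranger, version 6.0.0 by the file headers; the submitters' processing notes also name Seurat, GRCm38 and mm10; how barcodes were called, the annotation and strand use are not given in the sources used here. The files hold 32286 features, and 32235 (99.8%) matched GENCODE vM21 on GRCm38.

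All barcodes were kept. The members and gene lists were chosen with earlier results of these data known, and the classes with at least 35 high-mitochondrial barcodes per library, clusters 8 and 19, and the values without cluster 12 were added after counts were seen. Clusters come from scanpy 1.11.5 (Leiden resolution 1, 2000 variable genes, 30 components, 15 neighbours) on both libraries without mitochondrial genes. A cluster was named from the listed markers of 18 cell types if at least 3 were detected and its leading genes did not go against the name. A shallow cluster also needed a mean marker fold of 2, which left cluster 8 unnamed in place of erythroid-like. This criterion was added once values were known. Names rebuilt this way may differ from the study's. Doublets were kept.

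Levels are UMIs per 1000000 non-mitochondrial UMIs (CPM). Ratios have exact conditional binomial intervals, levels exact Poisson and shares Clopper-Pearson intervals, all at 95%, computed with scipy 1.17.1; they treat UMIs as independent and leave out variation between cells and animals. A limit at 0 is that of 3 counts. Named genes are those called in the same direction in both libraries with the largest smaller change, and those of the lists and markers; any other is said to be chosen after its values were seen. On simulated counts of monocyte-like barcodes, 90.5% of 200 changed genes of 10260 were recovered for the control and 97% of 10530 for the MYC library. Of the unchanged genes 1.26% and 0.726% were called. The simulated counts were Poisson, with changes larger than 2-fold in genes above the minimum of UMIs. They had no variation between cells, so they do not show how the rule does on 2-fold changes or on real barcodes. Results of some genes are not reported here.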

Additional observations from a re-analysis of the deposited data

Results flagged for a closer look

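With 1 library per genotype, 13 genes were called 2-fold different in opposite directions in the libraries when high-mitochondrial barcodes were set against other barcodes of the same class or cluster. Of these, 10 had at least 50 CPM in the higher kind of barcodes in each library and are given below; the others were Fn1 in B cell-like barcodes at -1.56 and 1.54, Paqr7 in granulocyte progenitor-like ones at -1.44 and 1.74, and Mrrf in monocyte-like ones at 1.04 and -1.02. The difference between the libraries was not tested for any of them. Each log2 ratio is given for the control and then the MYC library, with the values without the barcode richest in the gene.

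In T or NK cell-like barcodes the cytotoxic chemokine gene Ccl4 lay at -1.67 and 1.22, and without the richest barcode at -2.24 and -1.43, so its opposite direction rested on 1 barcode. The lymphocyte chemokine gene Xcl1 lay at -2.02 and 1.67 (-2.86 and 0.67 without), and the T cell kinase gene Zap70 at -1.17 and 1.07 (-1.35 and 0.92 without).

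In B cell-like barcodes the opposite genes were mainly neutrophil transcripts. Ngp lay at -1.07 and 2.15 (-1.15 and 0.93 without), Camp at -1.19 and 1.01 (-1.23 and 0.39 without), Lrg1 at -1.23 and 1.26 (-1.79 and 0.98 without) and Lgals1 at -1.14 and 1.01 (-1.37 and 0.77 without). In the MYC library 1 barcode of 39 held 352 of 561 Ngp and 143 of 327 Camp UMIs.

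Elsewhere Arhgef37 lay at -1.32 and 1.12 in monocyte-like barcodes (-1.52 and 1.05 without), Btg1 at -1.12 and 1.61 in cluster 19 (-1.34 and 1.45 without), and the proteasome gene Psmd6 at 1.26 and -1.28 in immature neutrophil-like barcodes (0.87 and -2.00 without).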

How the results depend on the processing

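No paired analysis was possible because there is 1 library per genotype. Of 98 alternative values of the main results 57 kept their value and 41 moved; the causes were not tested. With 15% as the threshold, high-mitochondrial barcodes made up 7.17% (control) and 7.83% (MYC), monocyte-like ones 9.56% and 35.2% of them, unnamed 59.8% and 36.7%; 7.88% and 18.8% of monocyte-like and 0.473% and 0.212% of mature neutrophil-like barcodes were high, and 2693 genes were called in control monocyte-like barcodes, 69.8% of them higher. With at least 1000 other UMIs the shares were 5.16% and 9.33%, the makeup 21.5% and 43.2% monocyte-like and 17.0% and 11.9% unnamed, and the monocyte-like class shares 10.2% and 21.3%. With classes from markers alone the makeup was 6.03% and 18.4% monocyte-like and 61.0% and 45.8% unnamed, and the class shares 7.58% and 18.3%, with 1.10% of mature neutrophil-like barcodes in the MYC library. By profiles it was 6.71% and 22.4% monocyte-like, 44.7% unnamed in the control, and class shares of 9.33% and 20.8%. At Leiden resolution 2 the monocyte-like class share of the MYC library was 26.9%. Scrublet's automatic threshold called 0 doublets, so removal of its calls was not run; an alternative chosen after seeing the data left out the top-scoring 2332 and 1681 barcodes, giving 52.9% unnamed in the control and 0.413% and 0.310% of mature neutrophil-like barcodes. Median-of-ratios scaling gave 1710 and 3037 genes over all barcodes in place of 2790 and 4602. Without cluster 12, also chosen after seeing the data, 968 were called in control monocyte-like barcodes. With no minimum of UMIs 1191 and 532 genes differed between the libraries, over all and monocyte-like barcodes, in place of 549 and 215; of the 532, 47.6% were higher, against 64.2%. The log2 ratio of the MYC feature was -1.38 per barcode in place of 0.47, and Ccl4 turned to -1.43 without 1 barcode. Among single genes and lists 405 values held, 214 moved and 1 reversed. By profiles or markers alone the rank of classes in both libraries and the shares of several classes also changed, as given with them. Depth limits the MYC feature, with 15 UMIs.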
